A study of Mus musculus with 7 samples.

Results

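The genes of fatty acid oxidation and of the peroxisome proliferator-activated receptors (PPARs) were followed in pancreatic islets, isolated after a high-fat diet, with and without a knockout of Traf6. They were chosen by gene symbol as a list of 38 genes out of 55487 gene rows in the count table. They cover the PPARs and a coactivator, fatty acid uptake and activation, mitochondrial and peroxisomal oxidation, and lipid droplets. All 38 symbols were found, once each. The 7 libraries were 3 of Traf6 KO mice, in which the gene for the ubiquitin ligase TRAF6 is described as deleted in beta cells only, and 4 of Control mice. Both genotypes received a diet with 60% fat for 15 weeks, and both sets of islets recovered in culture medium for 24 hours before the RNA was taken. Neither the driver of the deletion nor the age, sex or strain of the mice is labelled. Islets hold other cells beside beta cells, in which the gene stays intact by that description. In bulk islet RNA, fewer cells of a type and less RNA per cell cannot be told apart.

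Fatty acids enter a cell through carriers such as CD36 and are trapped as acyl-CoA by the long-chain synthetases (Acsl genes). The CPT1 enzymes pass the acyl group to carnitine for entry into the mitochondrion, which is the controlled step. CPT2 returns it to CoA inside. Each round of beta-oxidation then uses an acyl-CoA dehydrogenase, a hydratase, a 3-hydroxyacyl-CoA dehydrogenase and a thiolase, and the electron transfer flavoprotein carries off the electrons. Peroxisomes run a parallel pathway for very long chains. The PPARs are nuclear receptors that bind fatty acids and, paired with RXR, raise the transcription of many of these enzymes. In beta cells, HADH has a further role: its loss in humans causes excess insulin secretion through glutamate dehydrogenase.

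Several libraries stood apart. Totals ran from 22104256 to 25091055 counts in the Traf6 KO libraries, against 22161097 to 29917292 in the Control libraries, and levels are given as CPM, counts scaled to a common library size with TMM factors. A panel of 31 acinar (digestive enzyme) genes held 55.4%, 42.4% and 1.60% of the counts in Traf6 KO 1, 2 and 3, against 19.9%, 0.479%, 0.457% and 3.18% in Control 1 to 4, so that 2 of 3 Traf6 KO libraries and 1 of 4 Control libraries were rich in acinar RNA. Traf6 itself read 14.7, 15.3 and 14.5 CPM in the Traf6 KO libraries, against 17.9, 25.5, 22.1 and 12.6 CPM in the Control libraries. These counts cover the whole gene, not the deleted part. The library labelled Control 4 lay below every Traf6 KO library, and it is kept under its label throughout, in every direction given below. Traf6 KO 3 read 421 CPM of Xist, against at most 0.388 CPM elsewhere, and was the only library with 0 CPM of Ddx3y. In it, the difference in sex markers and the low acinar share cannot be told apart. Of 10 adipocyte markers, Lep, Retn, Cfd and Adrb3 were at 0 in every library, and Adipoq reached at most 0.032 CPM. Car3 reached at most 0.117 CPM, and Plin1 and Cidec at most 0.181 CPM. Plin4 read 0.724 and 0.592 CPM in Traf6 KO 1 and 2, against at most 0.084 CPM elsewhere. Fabp4 was present in every library, at 11.0 to 19.6 CPM.

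On a length scale, CPM per kilobase of exon, one enzyme stood far above the rest of the list. Hadh, the mitochondrial short-chain 3-hydroxyacyl-CoA dehydrogenase (chr3:131233419-131272101, minus strand, GRCm38), had a level of 102 ± 3.88 in Traf6 KO islets and 126 ± 8.0 in Control islets (SD, n = 3 and 4). The levels next in order in Control islets were Acadvl, the very long-chain acyl-CoA dehydrogenase, at 29.1 ± 2.10, and Etfa, a subunit of the electron transfer flavoprotein, at 28.0 ± 2.46, which did not differ beyond their spread. Acaa1a (18.9 ± 0.856), Acadl (18.3 ± 5.47), Acaa2 (17.3 ± 1.84) and Cpt2 (16.2 ± 1.39) followed. Of these, Acaa1a, Acadl and Acaa2 each lay within their spread of the next in order. At the low end stood Ppargc1a at 1.00 ± 0.394, Acot1 at 0.442 ± 0.15 and Ppara at 0.034 ± 0.0080. Hadh alone gave 26.0%, 28.9% and 33.5% of all counts of the 38 genes in Traf6 KO 1, 2 and 3, against 34.3%, 34.4%, 37.3% and 34.7% in Control 1 to 4.

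**Figure D1:**
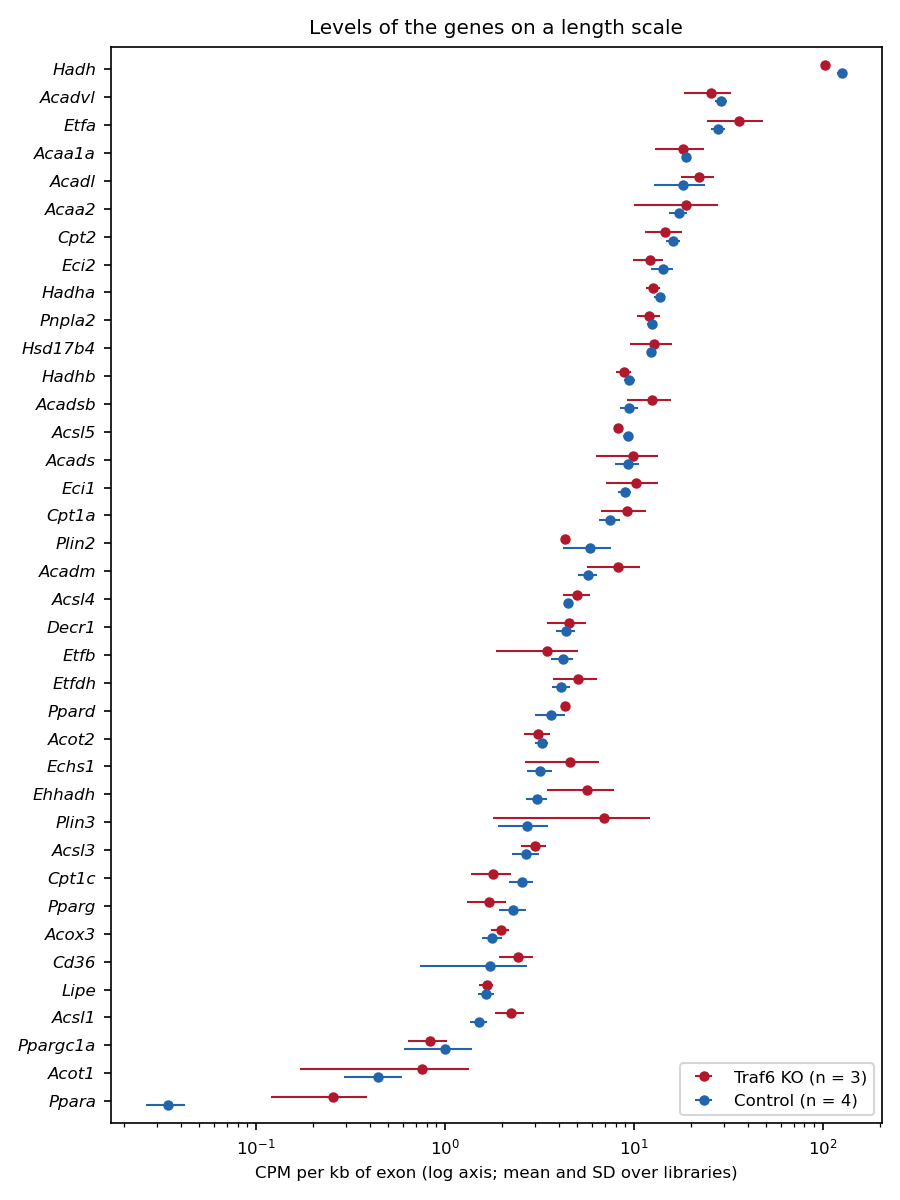
Level of each of the 38 genes in CPM per kilobase of exon on a log axis, as mean and SD over the 3 Traf6 KO libraries (red, upper point of each row) and the 4 Control libraries (blue, lower point). Genes are ordered by the Control mean; Hadh stands alone at the top, at 102 in Traf6 KO and 126 in Control islets, and Ppara at the bottom.

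No gene of the list passed the test between the genotypes. With edgeR's quasi-likelihood test over all 16203 genes tested, 0 of 38 had a Benjamini-Hochberg adjusted p under 0.05, as was the case for 0% of all genes (smallest adjusted p 0.1765). At an unadjusted p under 0.05 there were 6 of 38, with 5 higher and 1 lower in Traf6 KO islets, which is 15.8% against 16% of all genes tested. Over all 16203 genes, 1428 were higher and 1161 lower at that threshold. Of the list, 15 had a log2 fold change below 0, or 39.5%, against 49.3% of all genes. The median log2 fold change was 0.11 against 0.0051 over all genes. In 2 genes (Ppara and Acsl1) all 3 Traf6 KO libraries exceeded all 4 Control libraries, against 5.58% of all genes. In 3 (Hadh, Acsl5 and Plin2) all fell short of them, against 8.68% of all genes. At 5.26% and 7.89% of the list, these shares are near the background. Ppara passed the filter on low counts only through its Traf6 KO libraries. Its place among the higher genes, here and in the fits below, was thus partly set by the filter. The count of 0 depended on the library and the tool. Without Traf6 KO 3, so with both remaining Traf6 KO libraries acinar-rich, edgeR called 7 of 38 (Ppara, Acsl1, Acadm, Acadsb, Echs1, Ehhadh and Plin3), all higher, beside 4.24% of 16540 genes called in either direction and 3.43% called higher. DESeq2's Wald test on all libraries called Acsl1 and Ehhadh higher and Hadh lower, 3 of 38 beside 4.59% of all genes, but gave Ppara no adjusted p. Limma-voom with quality weights called Ppara, Acsl1, Acadm and Ehhadh higher, 4 of 38 beside 6.46% of all genes. With the 3 acinar-rich libraries left out, which leaves 1 Traf6 KO library, 0 of 38 were called beside 0.375% of 17851 genes.

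Levels of the 38 genes differed between libraries of one genotype. Traf6 KO 1 was the highest of the 7 libraries for 23 of them (60.5%, against 23.2% of all genes tested), and Traf6 KO 3 was the lowest for 21 (55.3%, against 19.9%). Levels ran Traf6 KO 1 above 2 above 3 for 29 genes, or 76.3% against 26.3% of all genes, which is also the order of the acinar share in these libraries. In 14 genes both Traf6 KO 1 and 2 lay above every Control library (36.8% against 16.5% of all genes). Traf6 KO 3 lay below every Control library in 22 genes (57.9% against 30.1%). Control 1, the acinar-rich Control library, was the highest of its group in 17 genes (44.7% against 28.0%). Summed over the list, the level was 2007, 1790 and 1453 CPM in Traf6 KO 1, 2 and 3, against 1921, 1728, 1790 and 1713 CPM in Control 1 to 4. The Traf6 KO libraries included the highest and the lowest of all 7. As a share of the counts left when acinar panel genes are taken out, the list held 0.225%, 0.230% and 0.1995% in the Traf6 KO libraries, against 0.229%, 0.227%, 0.226% and 0.226% in the Control libraries. The part of the acinar RNA in these differences was not tested beyond a fit that takes the acinar level as a covariate. In that edgeR fit 25 of 38 genes had a log2 fold change below 0 and the median of the list was -0.16. With the acinar-rich libraries left out 30 of 38 were below 0, with a median of -0.22. The median over all genes was -0.00095 and -0.028 in these fits, and the share of all genes below 0 in them was not taken. The fit without acinar-rich libraries sets Traf6 KO 3 alone against the acinar-poor Control libraries. Traf6 KO 3 also differed from all other libraries in its sex markers, so its values cannot be read as those of the genotype.

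**Figure D2:**
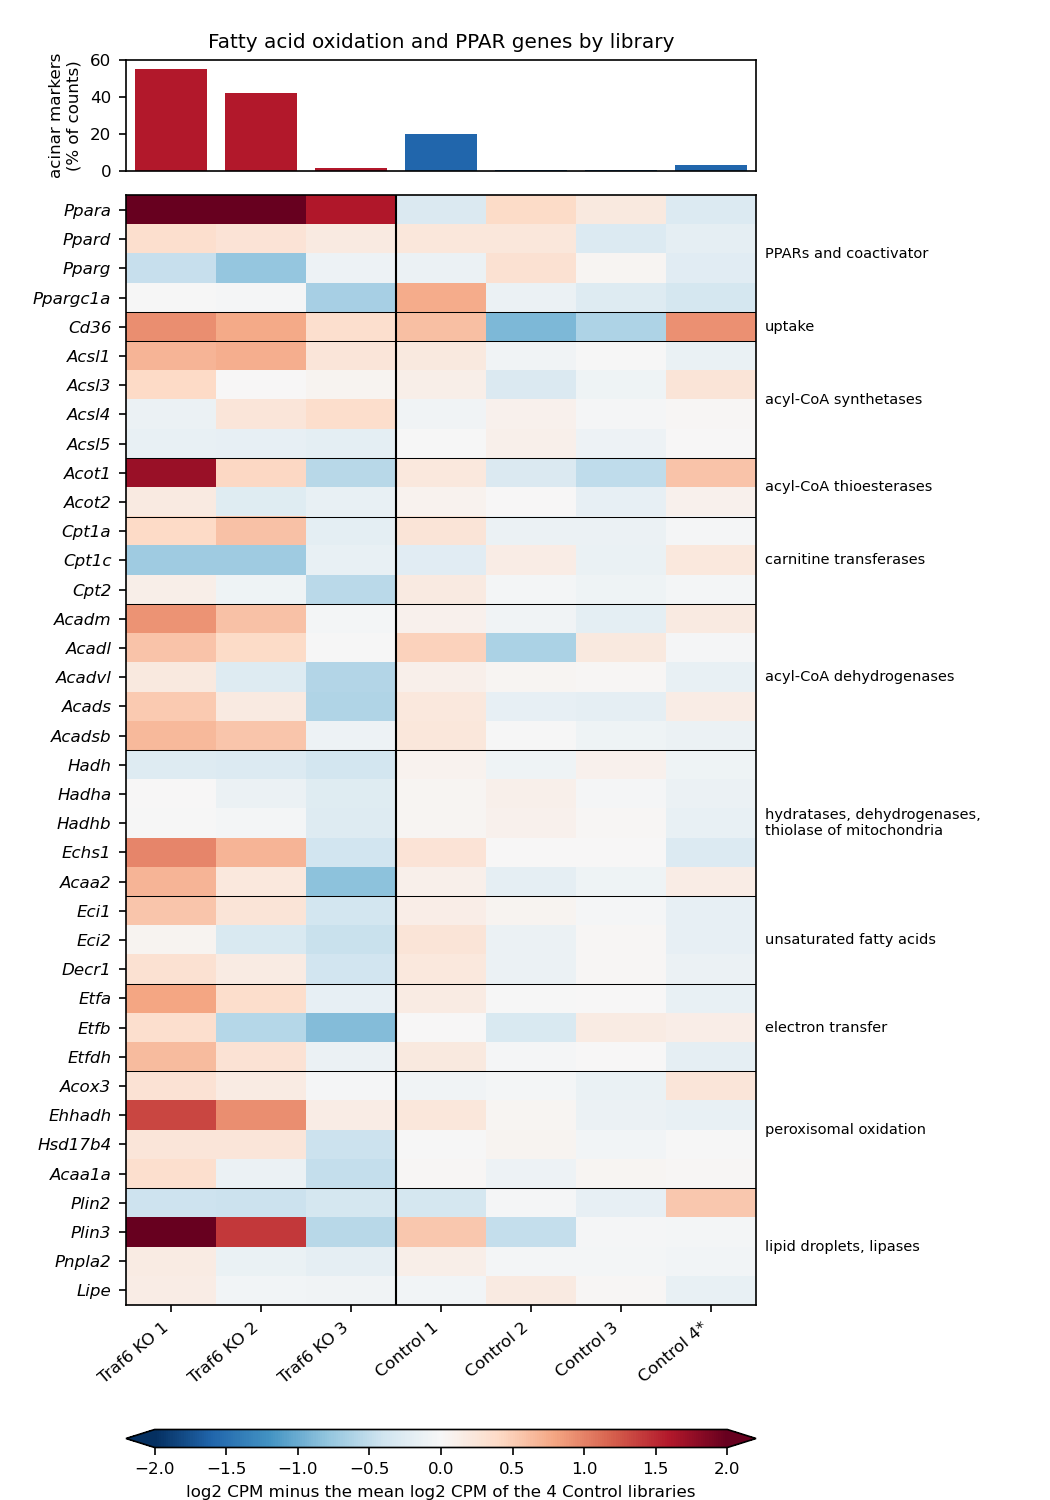
Rows are the 38 genes by role and columns the 3 Traf6 KO (left) and 4 Control libraries (right; the asterisk marks the library labelled Control 4); colour is log2 CPM minus the mean log2 CPM of the Control libraries, capped at 2, and the bars above give the share of counts in the acinar panel. In 29 rows, Hadh and Acsl5 among them, the levels run Traf6 KO 1 (55.4% acinar counts) above 2 (42.4%) above 3 (1.60%). Hadh, Acsl5 and Plin2 are pale blue in all 3.

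Among the receptors, Ppara, the fatty acid receptor of liver and other oxidative tissues, was at the edge of detection (chr15:85734983-85802819, plus strand, GRCm38). It had 15, 22 and 12 counts in Traf6 KO 1, 2 and 3, against 3, 6, 5 and 3 counts in Control 1 to 4, and passed the filter on low counts only through the Traf6 KO libraries. In CPM these were 1.36, 1.18 and 0.389 in Traf6 KO islets, against 0.105, 0.167, 0.146 and 0.106 in Control islets. All 3 Traf6 KO libraries were above all 4 Control libraries. However, the exact Poisson interval of Traf6 KO 3 (0.201 to 0.679 CPM) overlapped those of all 4 Control libraries. The upper ends of the Control intervals ran from 0.307 CPM in Control 1 to 0.364 CPM in Control 2. The log2 fold change was 2.80 ± 0.53 (SE, unadjusted p = 0.000805 by edgeR), which did not pass adjustment (adjusted p = 0.1765). It was 2.17 ± 0.69 with the acinar covariate (adjusted p = 0.232 by edgeR) and 1.43 when only Traf6 KO 3 was set against the acinar-poor Control libraries.

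Ppard, the most abundant receptor of the 3 per kilobase, read 33.9, 32.8 and 30.7 CPM in Traf6 KO islets, against 31.4, 31.7, 22.3 and 24.0 CPM in Control islets. The groups overlapped, with Control 3 and the library labelled Control 4 lowest, and the log2 fold change was 0.25 ± 0.15 (adjusted p = 0.443 by edgeR). Pparg, the receptor best known from fat cells, read 4.89, 3.93 and 6.32 CPM in Traf6 KO islets, against 6.23, 8.33, 6.91 and 5.75 CPM in Control islets. Its lowest values were those of the acinar-rich Traf6 KO 1 and 2, while Traf6 KO 3 lay within the Control range (log2 fold change -0.43 ± 0.22, adjusted p = 0.383 by edgeR). Ppargc1a, which encodes the coactivator PGC-1alpha, read 6.24, 6.19 and 3.98 CPM in Traf6 KO islets, against 10.5, 5.80, 5.27 and 4.91 CPM in Control islets. Control 1 was far above the other 6 libraries, and the log2 fold change of -0.28 ± 0.32 (adjusted p = 0.695 by edgeR) became 0.058 without it.

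For uptake, Cd36, a fatty acid carrier that endothelial cells and macrophages also express, read 10.3, 9.16 and 6.80 CPM in Traf6 KO islets, against 8.19, 2.90, 3.51 and 10.2 CPM in Control islets. The Control values split, with Control 1 and the library labelled Control 4 in the Traf6 KO range and the other 2 below it (log2 fold change 0.50 ± 0.45, adjusted p = 0.609 by edgeR). A panel of 14 macrophage and myeloid genes summed to 273, 156 and 208 CPM in Traf6 KO islets, against 249, 188, 189 and 555 CPM in Control islets. The sums of 14 endothelial genes were 432, 467 and 495 CPM in Traf6 KO islets, against 535, 493, 581 and 612 CPM in Control islets. Among the macrophage markers Adgre1 reached 12.0 CPM in the library labelled Control 4, against at most 5.88 CPM elsewhere. The part of these cells in the Cd36 level was not tested.

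Of the 4 synthetases, Acsl1, the form typical of oxidative and fat-storing tissues (chr8:46471037-46536051, plus strand), read 25.4, 26.3 and 18.7 CPM in Traf6 KO islets, against 18.2, 15.1, 15.8 and 14.5 CPM in Control islets. The groups did not overlap, although Traf6 KO 3 passed Control 1 by little. The log2 fold change was 0.56 ± 0.15 (unadjusted p = 0.00566, adjusted p = 0.201 by edgeR), and 0.35 ± 0.13 with the acinar covariate. Acsl5, which is found in intestine and liver (chr19:55251938-55297720, plus strand), read 40.8, 40.3 and 39.3 CPM in Traf6 KO islets, against 45.0, 48.1, 42.1 and 45.4 CPM in Control islets. Here every Traf6 KO library was below every Control library, by a small amount (log2 fold change -0.17 ± 0.085, adjusted p = 0.368 by edgeR). Acsl3, a droplet-associated form, spanned 11.7 to 15.3 CPM in Traf6 KO islets, against 9.53 to 13.9 CPM in Control islets. Acsl4, which prefers arachidonate, spanned 22.3 to 30.8 CPM in Traf6 KO islets, against 22.9 to 25.5 CPM in Control islets, and unlike most of the list it was highest in Traf6 KO 3 and lowest in Traf6 KO 1.

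**Figure D3:**
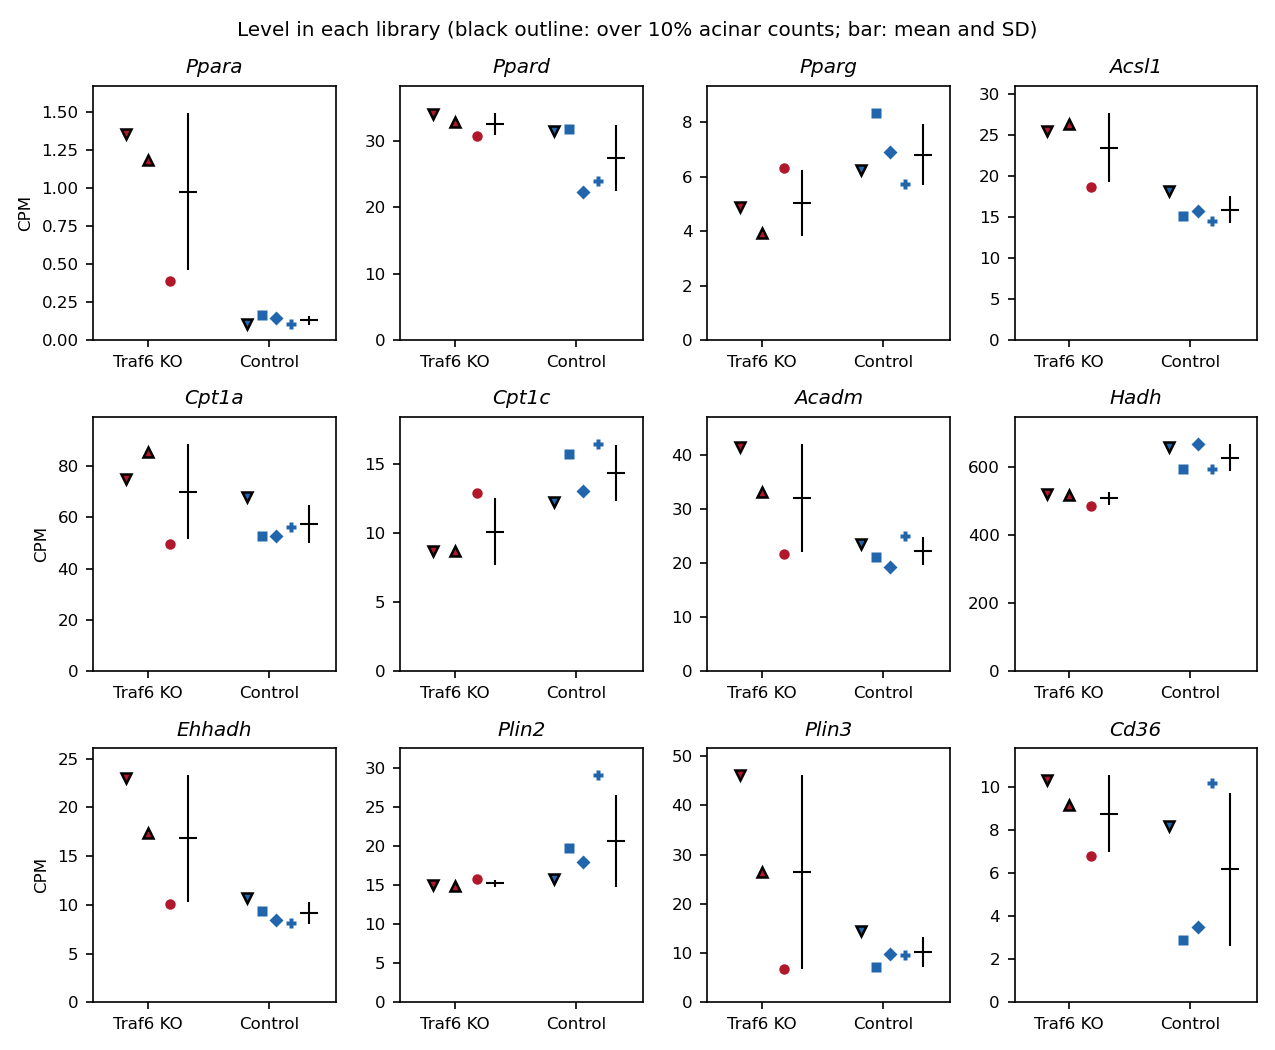
CPM in each library for 12 genes of the list, Traf6 KO in red on the left and Control in blue on the right of each panel, with the mean and SD as a bar; points run from library 1 to the last in each group, and a black outline marks the 3 libraries with over 10% acinar counts. For Ppara and Acsl1 every red point is above every blue one and for Hadh below, whereas for Acadm, Ehhadh and Plin3 the outlined Traf6 KO points are high and Traf6 KO 3 lies among or near the Control points.

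The thioesterases Acot1 (cytosolic) and Acot2 (mitochondrial), which cleave acyl-CoA back to the free acid, are similar neighbours on chromosome 12 whose starts lie 21641 bp apart, so reads may be divided between them and both levels are uncertain. Acot1 read 5.52, 2.21 and 1.13 CPM in Traf6 KO islets, against 1.93, 1.37, 1.17 and 2.47 CPM in Control islets. Traf6 KO 1 alone was high and Traf6 KO 3 was the lowest of all (log2 fold change 0.74 ± 0.54, adjusted p = 0.524 by edgeR), and leaving out Traf6 KO 1 gave -0.044. Acot2 read 8.05, 6.03 and 6.45 CPM in Traf6 KO islets, against 7.46, 7.13, 6.35 and 7.59 CPM in Control islets. Those ranges overlapped (log2 fold change -0.06 ± 0.16, adjusted p = 0.876 by edgeR).

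At the carnitine step, Cpt1a, the liver-type enzyme that controls entry, read 74.9, 85.5 and 49.6 CPM in Traf6 KO islets, against 67.9, 52.6, 52.6 and 56.3 CPM in Control islets. The acinar-rich Traf6 KO 1 and 2 were above every Control library and Traf6 KO 3 below all (log2 fold change 0.29 ± 0.19, adjusted p = 0.486 by edgeR). The covariate fit gave -0.044 ± 0.14. Cpt1c, the neuronal form that sits in the endoplasmic reticulum and has little transferase activity, read 8.68, 8.72 and 12.9 CPM in Traf6 KO islets, against 12.2, 15.7, 13.0 and 16.4 CPM in Control islets. It ran the opposite way to most of the list, lowest in Traf6 KO 1 and 2 and with Traf6 KO 3 inside the Control range (log2 fold change -0.50 ± 0.19, unadjusted p = 0.0308, adjusted p = 0.272 by edgeR). The ratio of Cpt1c to Cpt1a CPM was 0.116, 0.102 and 0.260 in Traf6 KO islets, against 0.18, 0.300, 0.248 and 0.292 in Control islets. Cpt2 read 42.0, 36.5 and 26.7 CPM in Traf6 KO islets, against 36.2 to 43.6 CPM in Control islets, with Traf6 KO 3 below the Control range.

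Among the acyl-CoA dehydrogenases, which start each round and differ in chain length, Acadm (medium chain) read 41.4, 33.2 and 21.6 CPM in Traf6 KO islets, against 23.6, 21.2, 19.3 and 25.1 CPM in Control islets. Traf6 KO 1 and 2 exceeded every Control library and Traf6 KO 3 did not (log2 fold change 0.52 ± 0.21, unadjusted p = 0.0383, adjusted p = 0.290 by edgeR). For Acadm the covariate fit gave 0.16 ± 0.17, and with the acinar-rich libraries left out it was -0.020. Acadsb, which acts on branched short chains, showed the same order within the Traf6 KO libraries, with 106, 99.8 and 63.0 CPM in Traf6 KO islets, against 79.0, 67.2, 63.8 and 62.1 CPM in Control islets (log2 fold change 0.40 ± 0.19, adjusted p = 0.341 by edgeR). Acadl (long chain) read 52.1, 45.8 and 35.04 CPM in Traf6 KO islets, against 48.7, 22.7, 40.4 and 34.5 CPM in Control islets. Control 2 was its lowest library by far, and the groups overlapped (log2 fold change 0.27 ± 0.25, adjusted p = 0.618 by edgeR). Acadvl read 51.8 to 89.5 CPM in Traf6 KO islets, against 70.3 to 83.7 CPM in Control islets, but its exons overlap those of Dvl2 on the opposite strand over 42.9% of their length and the strand setting is not given, so that its level is uncertain. Acads (short chain) read 13.8 to 29.9 CPM in Traf6 KO islets, against 18.3 to 24.1 CPM in Control islets, with Traf6 KO 1 highest and Traf6 KO 3 lowest of all 7.

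For Hadh, all 3 Traf6 KO libraries lay on the same side of the Control libraries, at acinar shares of 55.4%, 42.4% and 1.60%. Hadh read 522, 517 and 487 CPM in Traf6 KO islets, against 658, 594, 667 and 594 CPM in Control islets, with means of 509 ± 19.3 and 628 ± 39.8 CPM (SD, n = 3 and 4). No Traf6 KO library reached the lowest Control library. The log2 fold change was -0.30 ± 0.14 (unadjusted p = 0.0606, adjusted p = 0.331 by edgeR), -0.35 ± 0.14 with the acinar covariate (adjusted p = 0.281 by edgeR) and -0.35 with the acinar-rich libraries left out. It lay below 0 in all 20 alternative fits, between -0.35 and -0.26, and passed the threshold in 1 of them, DESeq2's Wald test. The beta cell transcript Ins2 was also lower in every Traf6 KO library, at 86608, 73802 and 65047 CPM, against 124780, 101830, 122310 and 119190 CPM in Control islets, and 13 of 14 beta cell markers had a log2 fold change below 0. The part of these markers in the level of Hadh was not tested.

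Hadha and Hadhb encode both chains of the trifunctional protein, which carries out the last steps for long chains in the mitochondrial membrane. Hadha read 121, 110 and 101 CPM in Traf6 KO islets, against 124, 129, 118 and 110 CPM in Control islets. Hadhb read 61.8, 60.8 and 52.4 CPM in Traf6 KO islets, against 63.9, 66.1, 63.3 and 56.6 CPM in Control islets. Their CPM ratio kept within 1.81 and 1.96 in Traf6 KO islets, against 1.86 and 1.95 in Control islets. The start sites of this pair lie 273 bp apart on opposite strands of chromosome 5, and their promoter windows overlap. The sequence is shown because the windows overlap, and any part of the overlap in the ratio was not tested. A steady ratio in Control islets was also seen for Etfa to Etfdh, which lie on chromosomes 9 and 3. That ratio kept within 1.61 and 1.86 in Traf6 KO islets, against 1.62 and 1.68 in Control islets. The window is from 250 bases before to 50 bases from the Hadhb start on (RefSeq, GRCm38.p6, chr5:30155003-30155302, plus strand), and capitals mark the 228 bases that also belong to the promoter window of Hadha.
Hadhb: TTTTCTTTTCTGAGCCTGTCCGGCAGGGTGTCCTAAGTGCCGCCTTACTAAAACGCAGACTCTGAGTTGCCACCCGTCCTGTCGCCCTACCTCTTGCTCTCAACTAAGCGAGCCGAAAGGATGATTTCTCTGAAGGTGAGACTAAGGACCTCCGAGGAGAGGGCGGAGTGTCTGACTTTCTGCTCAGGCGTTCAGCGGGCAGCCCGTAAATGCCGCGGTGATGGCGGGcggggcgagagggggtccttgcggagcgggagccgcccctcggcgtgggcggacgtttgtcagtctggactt
Echs1, the short-chain hydratase, read 51.9, 42.3 and 20.2 CPM in Traf6 KO islets, against 31.7, 26.4, 26.4 and 21.7 CPM in Control islets. Acaa2, the thiolase, read 41.6, 29.998 and 14.7 CPM in Traf6 KO islets, against 28.1, 23.02, 24.6 and 28.9 CPM in Control islets. In both, Traf6 KO 1 and 2 were above and Traf6 KO 3 below every Control library.

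The enzymes for unsaturated fatty acids followed the order of the libraries. Eci1, a mitochondrial enoyl-CoA isomerase, read 27.9, 22.8 and 14.8 CPM in Traf6 KO islets, against 17.0 to 20.8 CPM in Control islets. Decr1, the dienoyl-CoA reductase, read 20.8, 18.9 and 13.0 CPM in Traf6 KO islets, against 15.5 to 19.6 CPM in Control islets. Eci2, the isomerase shared with peroxisomes, read 80.7, 63.5 and 57.1 CPM in Traf6 KO islets, against 69.4 to 93.3 CPM in Control islets. The electron carriers did likewise. Etfa read 88.8, 65.2 and 45.5 CPM in Traf6 KO islets, against 46.0 to 57.0 CPM in Control islets. Etfdh, the dehydrogenase that hands the electrons to ubiquinone, read 47.8, 37.7 and 28.3 CPM in Traf6 KO islets, against 27.3 to 35.3 CPM in Control islets. Etfb read 6.15, 3.29 and 2.66 CPM in Traf6 KO islets, against 3.96 to 5.44 CPM in Control islets, but 53.0% of its exon length is shared with Gm45233 on the same strand, so its low level is uncertain.

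In the peroxisome, Ehhadh, the bifunctional hydratase and dehydrogenase and a well-known PPARalpha target, read 22.98, 17.4 and 10.1 CPM in Traf6 KO islets, against 10.7, 9.34, 8.43 and 8.19 CPM in Control islets. Traf6 KO 1 and 2 were above every Control library, and Traf6 KO 3 was below Control 1 alone. The log2 fold change was 0.87 ± 0.26 (unadjusted p = 0.0102, adjusted p = 0.216 by edgeR) and 0.42 ± 0.22 with the acinar covariate. Acox3, an acyl-CoA oxidase, read 20.2 to 25.0 CPM in Traf6 KO islets, against 18.6 to 24.2 CPM in Control islets. Hsd17b4, the second bifunctional enzyme, read 49.7, 49.8 and 31.0 CPM in Traf6 KO islets, against 40.4 to 43.7 CPM in Control islets. Acaa1a, the peroxisomal thiolase, read 105, 76.3 and 59.5 CPM in Traf6 KO islets, against 77.6 to 85.8 CPM in Control islets.

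On lipid droplets, the coat proteins Plin2 and Plin3 ran apart. Plin2, which marks stored fat in most cells (chr4:86648386-86670060, minus strand), read 15.0, 14.9 and 15.71 CPM in Traf6 KO islets, against 15.72, 19.8, 17.995 and 29.0 CPM in Control islets. Every Traf6 KO library was below every Control library, but Traf6 KO 3 and Control 1 were nearly level. The library labelled Control 4, which also had the most macrophage RNA, was well above the others. The log2 fold change was -0.44 ± 0.21 (adjusted p = 0.341 by edgeR), and -0.23 ± 0.13 without the library labelled Control 4 (adjusted p = 0.47 by edgeR). Plin3, a coat protein of small droplets and of endosomes, read 46.0, 26.5 and 6.74 CPM in Traf6 KO islets, against 14.5, 7.13, 9.74 and 9.67 CPM in Control islets. Traf6 KO 1 and 2 were far above every Control library and Traf6 KO 3 was below all of them, and Control 1 was the highest of its group. The log2 fold change of Plin3 was 1.35 ± 0.54 (unadjusted p = 0.0378, adjusted p = 0.287 by edgeR), 0.08 ± 0.39 with the acinar covariate, and -0.40 with the acinar-rich libraries left out. The ratio of Plin3 to Plin2 CPM was 3.07, 1.78 and 0.429 in Traf6 KO islets, against 0.922, 0.361, 0.541 and 0.333 in Control islets, and the 3 highest ratios were those of the acinar-rich libraries. For the lipases the groups overlapped. Pnpla2, adipose triglyceride lipase, read 33.0 to 42.2 CPM in Traf6 KO islets, against 36.1 to 40.8 CPM in Control islets. Lipe, hormone-sensitive lipase, read 9.20 to 10.8 CPM in Traf6 KO islets, against 8.75 to 11.0 CPM in Control islets.

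**Figure D4:**
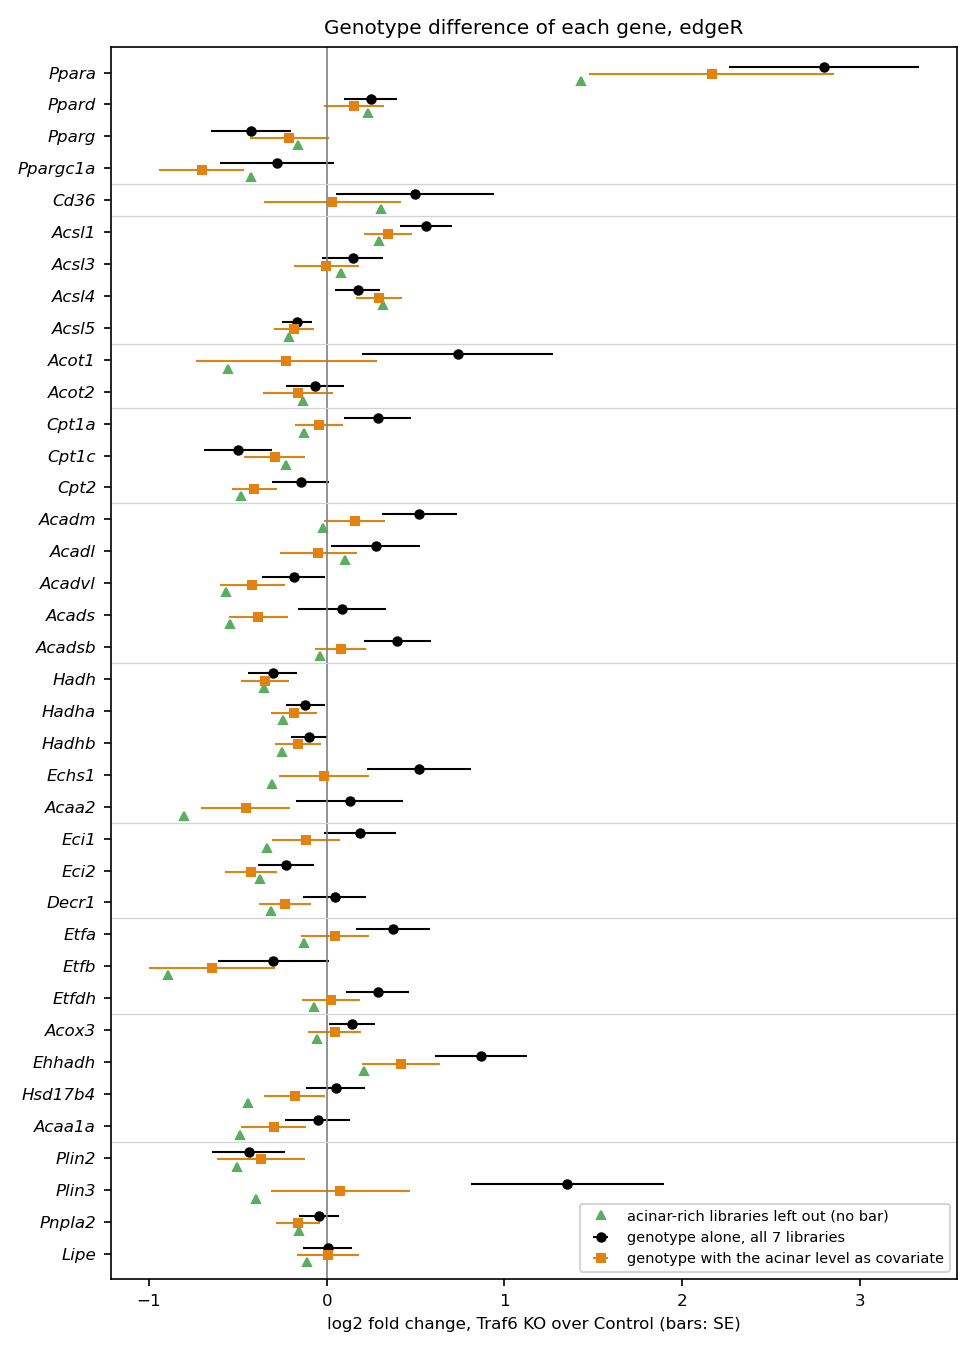
Log2 fold change of each gene, Traf6 KO over Control, from edgeR: black circles with genotype alone in all 7 libraries, orange squares with the acinar level as a covariate (bars are SE), and green triangles with the 3 acinar-rich libraries left out, which leaves 1 Traf6 KO library. Hadh, Acsl5 and Plin2 lie left of 0 and Ppara, Acsl1 and Ehhadh right of 0 in all 3, while Plin3 runs from 1.35 through 0.08 to -0.40.

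The promoter windows of the list were read for the PPAR response element, a direct repeat of the half-site AGGTCA with 1 base between, AGGTCANAGGTCA, on both strands. RefSeq windows (GRCm38.p6) matched 35 of the 38 genes, with 39 windows, and 0 of 39 held the element with at most 1 mismatch, against 0.554% of 32851 windows of all genes. With up to 2 mismatches 4 of 39 did (10.3%, against 3.86% of all windows), and the half-site alone, which the full element contains, was in 9 of 39 (23.1%, against 16.3%). The 4 windows are shown so that the matches, in capitals, can be seen in place; a match is a run of letters and not a measured binding site. They are Plin2 (chr4:86670010-86670309, minus strand, match from 225 bases before the start), Cd36 (chr5:17835847-17836146, minus strand, 63 bases before), Echs1 (chr7:140116372-140116671, minus strand, 83 bases before) and Etfa (chr9:55512194-55512493, minus strand, 77 bases before).
Plin2: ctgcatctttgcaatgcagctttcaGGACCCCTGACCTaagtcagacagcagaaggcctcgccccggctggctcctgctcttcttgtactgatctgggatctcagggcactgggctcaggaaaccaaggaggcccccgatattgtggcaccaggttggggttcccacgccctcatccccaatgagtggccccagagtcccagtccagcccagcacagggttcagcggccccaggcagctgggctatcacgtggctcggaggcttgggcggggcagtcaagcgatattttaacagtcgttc
Cd36: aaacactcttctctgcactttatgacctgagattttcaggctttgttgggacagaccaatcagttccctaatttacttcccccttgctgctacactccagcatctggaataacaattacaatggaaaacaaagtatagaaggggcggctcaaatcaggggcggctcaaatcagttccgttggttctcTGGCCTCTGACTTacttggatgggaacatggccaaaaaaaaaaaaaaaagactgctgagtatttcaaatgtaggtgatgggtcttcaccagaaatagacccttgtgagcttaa
Echs1: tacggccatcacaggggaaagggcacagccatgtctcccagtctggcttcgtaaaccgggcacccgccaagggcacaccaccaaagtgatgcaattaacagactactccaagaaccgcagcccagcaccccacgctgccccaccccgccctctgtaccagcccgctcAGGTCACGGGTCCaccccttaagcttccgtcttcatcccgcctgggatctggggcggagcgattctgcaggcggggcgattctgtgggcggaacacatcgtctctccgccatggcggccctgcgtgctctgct
Etfa: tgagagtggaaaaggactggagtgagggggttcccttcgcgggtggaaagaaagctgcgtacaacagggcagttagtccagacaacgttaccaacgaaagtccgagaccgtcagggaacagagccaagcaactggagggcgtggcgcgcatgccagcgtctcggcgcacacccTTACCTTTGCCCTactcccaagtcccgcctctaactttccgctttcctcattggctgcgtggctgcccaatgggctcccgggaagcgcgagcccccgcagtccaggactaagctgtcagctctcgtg
These 4 genes had no common pattern in the islets: Plin2 was lower in all Traf6 KO libraries, Cd36 overlapped, and Echs1 and Etfa were high in Traf6 KO 1 and 2 and lower in Traf6 KO 3 than in any Control library.

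Around the list, 153 other genes of the same pathways were read from the same fit, of which 129 passed the filter on low counts. By edgeR 0 of them were called, while 17 were higher and 5 lower at an unadjusted p under 0.05 (17.1%, against 16% of all genes tested), with a median log2 fold change of 0.06. Of all genes tested, 1428 were higher and 1161 lower at that threshold. All 3 Traf6 KO libraries lay above every Control library in 7 of the 129 genes (5.43%, against 5.58% of all genes tested). They lay below every Control library in 10 (7.75%, against 8.68%). Of the PPAR partners and cofactors, Nrip1, a corepressor of nuclear receptors, read 8.14, 11.6 and 17.8 CPM in Traf6 KO islets, against 6.41 to 7.23 CPM in Control islets (log2 fold change 0.85, adjusted p = 0.205 by edgeR), with Traf6 KO 3 highest. Ncoa2 and Sirt1 overlapped, with log2 fold changes of 0.41 and 0.36. Among known PPAR targets, Fgf21, a secreted factor that acinar cells also make, read 30.2, 9.80 and 0.972 CPM in Traf6 KO islets, against 1.23, 0.028, 0.029 and 0.035 CPM in Control islets. Its order within the Traf6 KO libraries was that of the acinar share. Between the groups this order did not hold. Traf6 KO 3 (1.60% acinar counts) lay above the library labelled Control 4 (3.18%), and only the acinar-rich Control 1 exceeded Traf6 KO 3. The log2 fold change of Fgf21 was 5.40 ± 1.45 (unadjusted p = 0.00591, adjusted p = 0.201 by edgeR). The part of the acinar RNA in it was not tested. Vldlr, a lipoprotein receptor, read 33.3, 37.4 and 31.6 CPM in Traf6 KO islets, against 27.7, 30.1, 25.1 and 24.7 CPM in Control islets, without overlap (log2 fold change 0.34 ± 0.11, adjusted p = 0.231 by edgeR).

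Beside the carnitine enzymes, Slc25a20, the carnitine carrier that works between CPT1 and CPT2, read 18.4, 16.4 and 13.0 CPM in Traf6 KO islets, against 18.9, 20.8, 19.1 and 23.9 CPM in Control islets. It lay below every Control library in all 3 (log2 fold change -0.38 ± 0.15, adjusted p = 0.2805 by edgeR). Tmlhe, of carnitine synthesis, was above them in all 3 (3.89 to 5.06 CPM in Traf6 KO islets, against 2.72 to 3.08 CPM in Control islets). Acacb, whose product malonyl-CoA inhibits CPT1, read 30.8, 18.7 and 2.69 CPM in Traf6 KO islets, against 1.84 to 8.30 CPM in Control islets, high again in the acinar-rich libraries. Of the other mitochondrial acyl-CoA enzymes, Mmut, methylmalonyl-CoA mutase, read 48.3, 43.4 and 31.9 CPM in Traf6 KO islets, against 25.5 to 31.9 CPM in Control islets. Acad12 read 7.35 to 9.75 CPM in Traf6 KO islets, against 11.4 to 12.1 CPM in Control islets, and Hibch, of valine breakdown, 11.9 to 34.6 CPM in Traf6 KO islets, against 10.8 to 14.0 CPM in Control islets.

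Of the genes listed with the peroxisome, 7 of 35 tested lay below every Control library in all 3 Traf6 KO libraries (20%, against 8.68% of all genes tested). This was the highest such share among the lists of other pathway genes, which together gave 7.75%. By edgeR 3 of 35 had an unadjusted p under 0.05 (8.57%, against 16%), and the median log2 fold change was -0.0094. By that threshold other lists had the higher shares. It was passed by 40% of 15 PPAR target genes (5 higher, 1 lower) and 33.3% of 9 genes of the carnitine list. For 25 other mitochondrial acyl-CoA enzymes the share was 28%. Mpv17 was put on the peroxisome list by symbol alone, and the place of its protein in the cell was not examined. It had the smallest p of the list, with 21.3, 22.7 and 23.8 CPM in Traf6 KO islets, against 30.9, 29.9, 31.8 and 30.6 CPM in Control islets. Its log2 fold change was -0.45 ± 0.088 (unadjusted p = 0.000943, adjusted p = 0.1765 by edgeR). Pex10, a peroxisome import factor, read 9.68 to 10.8 CPM in Traf6 KO islets, against 11.7 to 13.1 CPM in Control islets. Cat, catalase, read 51.6, 36.3 and 10.4 CPM in Traf6 KO islets, against 5.74 to 13.6 CPM in Control islets, in the order of the acinar share. For uptake and activation, Slc27a3 read 3.93 to 5.80 CPM in Traf6 KO islets, against 5.64 to 9.07 CPM in Control islets, and Acsl6 14.9 to 16.4 CPM in Traf6 KO islets, against 15.4 to 21.2 CPM in Control islets. For droplets and lipid synthesis, Gpam, the first enzyme of glycerolipid synthesis, read 31.4, 33.4 and 19.6 CPM in Traf6 KO islets, against 16.9, 17.1, 14.1 and 14.8 CPM in Control islets, without overlap (log2 fold change 0.83 ± 0.19, adjusted p = 0.183 by edgeR). Lpin2 did not overlap either (19.2 to 23.3 CPM in Traf6 KO islets, against 16.7 to 17.3 CPM in Control islets). Hsd17b13, a droplet protein, read 424, 217 and 4.37 CPM in Traf6 KO islets, against 67.7, 3.32, 3.22 and 7.27 CPM in Control islets, highest in the 3 acinar-rich libraries.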

How the data were processed

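Islet RNA of 7 mice was read in paired 151 bp cycles, and the authors' 1 deposited table holds raw whole-number counts for 55487 gene rows. STAR 2.6.1b, RSEM 1.3.1, FastQC and GRCm38 appear in the submitters' processing notes without their roles; rounded RSEM estimates are thus possible. Annotation and strand setting: not given in the sources used here. The kit named for RNA in the labels is a tissue DNA kit. Groups came from the genotype label. Each library carries its own animal tag; were an animal shared, the p-values would cover spread between samples only. No pair of the 21 agreed within sampling noise.

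From the counts, edgeR 4.0.16 (R 4.3.3) was run here with TMM factors, filterByExpr by group (minimum count 10, minimum total 15), genotype as the only term, and Benjamini-Hochberg adjustment over the 16203 genes tested. All 38 genes passed that filter, Ppara only through its Traf6 KO libraries. The script was tested on simulated data that had the spread of close replicates. That test does not show which changes could be found at the spread of these libraries. The genes and lists were chosen with earlier results of these data known. Values in every library are given for genes without overlap between groups, the 8 smallest p, and 12 genes named by symbol; other pathway genes are the 3 smallest p per list, of which 1 is not reported here. The alternatives, 20 fits, covered scaling, filters, DESeq2 1.42.0, limma 3.58.1, each library left out, tags, replicate number and acinar RNA (the mean log2(CPM + 1) of its markers, or leaving out libraries over 10%). Coordinates and exon lengths are from GENCODE M21 (GRCm38). Poisson intervals (95%) cover counting error only.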

Additional observations from a re-analysis of the deposited data

Results flagged for a closer look

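In 3 of the 38 genes 1 of the 4 Control libraries lay far from the other 3, by Dixon's criterion for a single outlying value; chance alone flags about 1 in 20 such groups. Ppargc1a read 10.5 CPM in Control 1, against 4.91 to 5.80 CPM in the other Control libraries. Acaa1a read 77.6 CPM in Control 2, against 84.5 to 85.8 CPM. Pnpla2 read 40.8 CPM in Control 1, against 36.1 to 36.7 CPM. Control 1 is the Control library with 19.9% of its counts in the acinar panel, and the part of that in its values was not tested. Groups of 3 libraries, as for Traf6 KO, were not examined in this way.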

How the results depend on the processing

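Of the 38 genes, 16 kept the direction of their log2 fold change in all alternatives run, 6 above and 10 below 0, and 22 turned in at least 1. Of the 759 combinations of a gene and an alternative, 57 turned the direction, 10 of them with the acinar covariate and 15 with the acinar-rich libraries left out. The counts of genes, of listed genes and of other pathway genes called were 0 in each. With DESeq2's Wald test they became 744 (4.59% of all genes tested), 3 of 38 and 8 of 129. With limma-voom and quality weights they became 1046 (6.46%), 4 of 38 and 12 of 129. Leaving out 1 library gave 0 to 701 genes, 0 to 7 listed genes and 0 to 12 other pathway genes, above 0 only without Traf6 KO 3. That fit called 4.24% of all genes tested, 7 of 38 listed genes and 12 of 129 other pathway genes. Genes called were 3 with the acinar covariate and 67 without acinar-rich libraries, and 0 of them were listed genes. The median of the list (0.11) was -0.16 with the acinar covariate, -0.22 without acinar-rich libraries, 0.24 in Q- and R-tagged libraries alone, -0.017 with limma-voom, 0.18 with quality weights, and -0.052 to 0.22 with 1 library left out. The cause of these shifts was not tested. The fit of Q- and R-tagged libraries leaves out Traf6 KO 3 and the library labelled Control 4, which are tagged S. Both of its Traf6 KO libraries are thus acinar-rich. The acinar-rich libraries carry the consecutive tags Q819, Q820 and Q821 (Traf6 KO 1, Traf6 KO 2 and Control 1). In them, acinar share and tag cannot be told apart.

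Among the 18 genes chosen by the naming rule, 8 turned. With the acinar covariate the log2 fold change was -0.23 for Acot1, -0.044 for Cpt1a and -0.047 for Acadl. With acinar-rich libraries left out it was -0.56 for Acot1, -0.13 for Cpt1a, -0.020 for Acadm, -0.041 for Acadsb and -0.40 for Plin3. Acot2 was at 0.0045 in Q- and R-tagged libraries alone. With 1 library left out, Ppargc1a ranged from -0.39 to 0.058, Acot1 from -0.044 to 1.14 and Acot2 from -0.18 to 0.032.

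With the replicate block 6 genes were called, none of the 38, and Plin2 was at -0.23. Libraries of the same number had correlated deviations of 0.597, -0.177 and 0.454, so the numbers do not pair them. Ppara was not tested at a mean CPM of at least 1 and had no adjusted p by DESeq2. Its 3 to 22 counts a library limit its fold change.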
